A study of Mus musculus with 4 samples.

Results

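The regions described are the ATAC-seq peaks of human chromosomes 13 and 18, taken from 1 peak list that was called on all libraries of the dataset merged. A peak was included when its centre lay above position 18900000 on chromosome 13, and below 15400000 or above 21500000 on chromosome 18 (GRCh38), which leaves out the centromeres. This gave 1416 of the 48751 peaks of the list, or 2.90%, with 823 on 13q, 157 on 18p and 436 on 18q. All 1416 have a width, a fold enrichment and a q-value, and no filter on low values was applied. The 12 peaks of these chromosomes outside the limits, 7 on chromosome 13 and 5 on chromosome 18, were left out.

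The cells were HEK293, an established human line from embryonic kidney, with 2 libraries of cells given an NFkB TRAFTAC and 2 of cells given a scrambled TRAFTAC. A TRAFTAC is a DNA-RNA hybrid used to degrade a transcription factor. The factor is caught on the DNA, the RNA holds a HaloTag-bearing dCas9, and a PROTAC that binds HaloTag then directs the bound factor to the proteasome. All 4 libraries shared the plasmid for the HA-HaloTag7-dCas9 fusion at 1 μg/mL and the TRAFTAC at 25 nM, transfected for 6 h. All also received TNF-α, which activates NFkB, at 5 ng/mL, and the PROTAC HP14 at 25 μM, both for 19 h, and DNase shortly before harvest. The treatment label also names DMSO in place of HP14, without saying for which cells, and the design text gives HP14 for all. Each library came from 50000 cells and 8 cycles of PCR. The groups therefore differ only in the DNA of the TRAFTAC, and both are of 1 cell line with transient transfection. The list pools both groups and holds no value for a single library, so the TRAFTACs could not be compared, and neither a replicate error nor a test could be given. The intervals printed with the values cover only the error of counting, and peaks that lie close together do not count as independent.

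In ATAC-seq, the Tn5 transposase cuts and tags DNA that is not wrapped in nucleosomes, so that fragments pile up at active promoters, enhancers and insulators. Open sites usually gather around genes, and chromosomes that carry few genes for their length are known to hold long stretches of compact, late-replicating chromatin. Chromosomes 13 and 18 are textbook examples of gene-poor autosomes, and chromosome 18 is known to lie towards the edge of the nucleus, whereas the gene-rich chromosome 19 of like size lies towards its interior. Chromosome 13 is acrocentric, that is, its short arm consists of repeats and ribosomal DNA, as is that of chromosome 14. For these reasons chromosome 14 (centres above 19000000) was set beside chromosome 13, and chromosome 19 (centres below 24000000 or above 28000000) beside chromosome 18. No gene is named here, because an annotation of GRCh38 was not used.

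Chromosomes 13 and 18 had the fewest peaks for their length. Chromosome 18 held 593 peaks over 74.2 Mb, or 8.00 per Mb (95% exact Poisson interval 7.37 to 8.67). Chromosome 13 held 823 peaks over 95.5 Mb, or 8.62 per Mb (8.04 to 9.23). They were the lowest and second lowest of the 23 chromosomes ranked (1 to 22 and X). The next were chromosome 4 with 9.38 per Mb (8.95 to 9.83) and chromosome 14 with 10.3 per Mb (9.69 to 10.9), both counted over the whole chromosome to the last peak. The whole-chromosome lengths of the other 21 chromosomes include centromeres and unsequenced arms, which lowers their densities, whereas those of chromosomes 13 and 18 leave them out. Chromosomes 13 and 18 differed from each other by a ratio of 1.08 (95% exact interval 0.969 to 1.20), which includes equal density.

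With like limits, chromosome 14 had 12.4 peaks per Mb, 1.44 times the density of chromosome 13 (1.31 to 1.58). Chromosome 19 had 54.1 peaks per Mb, 6.77 times the density of chromosome 18 (6.19 to 7.40). Peaks covered 0.640% of the 13q sequence and 0.610% of chromosome 18, against 0.961% of chromosome 14 and 3.82% of chromosome 19. The strongest peaks, those whose −log10 q-value reached 100, were also sparser. These numbered 1.81 per Mb on chromosome 13 and 3.12 on chromosome 14, a ratio of 1.72 (1.42 to 2.09). On chromosome 18 they numbered 1.63 per Mb against 15.5 on chromosome 19, a ratio of 9.47 (7.82 to 11.6). As shares of all peaks they made up 21.0% on chromosome 13 (18.4% to 23.9%) and 20.4% on chromosome 18 (17.4% to 23.8%), near the 21.5% of the whole list. Chromosome 14 had 25.1% (22.6% to 27.8%) and chromosome 19 28.6% (27.0% to 30.2%). The low density of strong peaks on chromosomes 13 and 18 thus mostly restates that of all peaks.

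**Figure D1:**
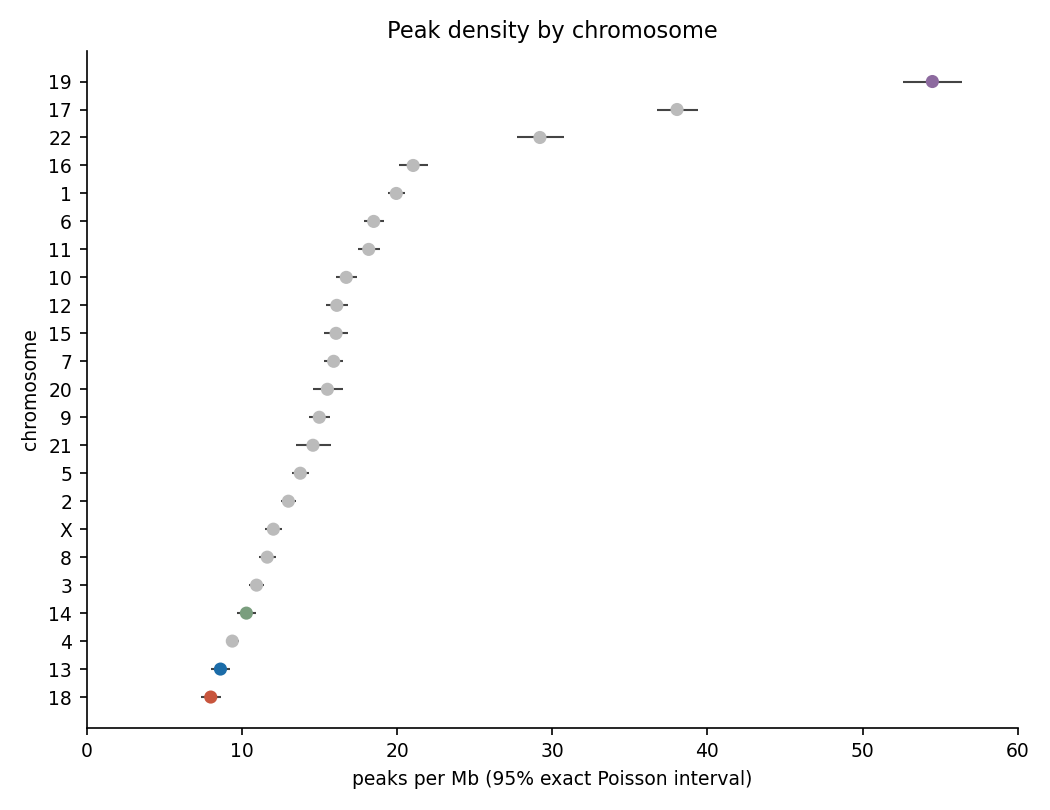
Peaks per Mb (horizontal axis) for the 23 chromosomes (vertical axis), with 95% exact Poisson intervals as bars, chromosomes 13 and 18 within the limits given and the others to their last peak. Chromosomes 18 (8.00) and 13 (8.62) sit at the low end, and chromosome 19 lies far above all others.

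The arms of chromosome 18 differed in density by count. The short arm had 10.2 peaks per Mb (8.66 to 11.9) and the long arm 7.42 (6.74 to 8.15), a ratio of 1.37 (1.14 to 1.65). This interval takes peaks as independent. The variance of the counts in bins of 1 Mb was 4.83 times their mean on 18p and 6.85 times on 18q. The interval is therefore too narrow, and whether the arms differ beyond this unevenness was not tested. The strongest peaks made up like shares of both arms, 35 peaks or 22.3% on 18p (16.5% to 29.4%) and 86 peaks or 19.7% on 18q (16.3% to 23.7%), beside 21.5% of the whole list. Their ratio per Mb of 1.55 (1.02 to 2.33) is therefore no result apart from that of all peaks. The density of 18q was also below that of 13q, but their intervals overlap slightly. On 18p, peaks covered 0.828% of the sequence, against 0.553% on 18q.

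In bins of 1 Mb, peaks were spread unevenly along each arm. The 95 whole bins of 13q held a median of 7 peaks and up to 47, and the 73 whole bins of chromosome 18 a median of 7 and up to 30. Empty bins numbered 12 on 13q (12.6%, 95% Wilson interval 7.38% to 20.8%), 1 on 18p and 7 on 18q (12.1%, 5.97% to 22.9%). At most 2 peaks were found in 23 bins of 13q and 22 of chromosome 18. At the other end, 20 bins of 13q and 15 of chromosome 18, about 1 bin in 5 on each, held 50% of the peaks. The variance of the bin counts was 7.38 times their mean on 13q and 6.42 times on chromosome 18, where randomly placed peaks would give a ratio near 1. The ratio was higher on chromosome 14, at 9.79, and on chromosome 19, at 12.9, so such unevenness was not particular to chromosomes 13 and 18.

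The share of empty bins on 13q was close to that of chromosome 14, where 11 of 87 bins were empty (12.6%, 7.21% to 21.2%), although chromosome 14 was denser. Over all bins, the empty ones included, the median was 12 peaks on chromosome 14 against 7 on 13q. Bins of at least 20 peaks numbered 18 on chromosome 14, 9 on 13q and 8 on chromosome 18. On chromosome 19, 0 of 54 bins were empty, which allows a share of up to 6.64% (Wilson), and 46 bins held at least 20 peaks.

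**Figure D2:**
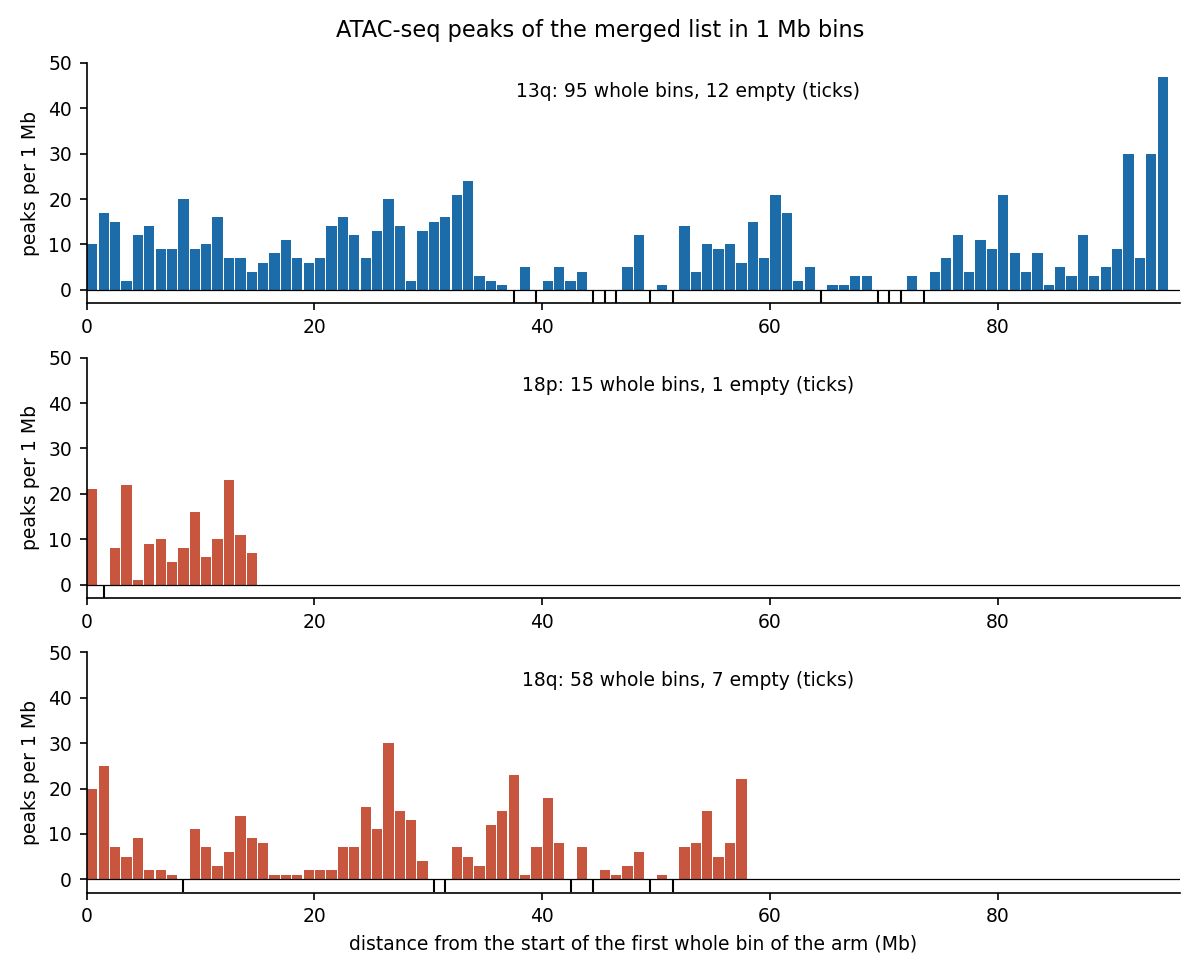
Number of peaks (vertical axis) in each whole 1 Mb bin along 13q, 18p and 18q (horizontal axis, distance in Mb from the first whole bin of the arm), with ticks below the axis at the 20 empty bins. Peaks rise to 47 near the end of 13q, and the empty bins of 13q fall in its middle and later part, among bins with few peaks.

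On 13q the empty bins lay between 56000001 and 93000000. The longest runs were of 3 bins each, from 63000001 to 66000000 and from 88000001 to 91000000. In windows of 10 Mb, the proximal part up to 50000000 held 7.90 to 12.6 peaks per Mb. The window from 60000001 to 70000000 held 29 peaks (2.90 per Mb) and that from 80000001 to 90000000 held 32 (3.20 per Mb), with 96 peaks (9.60 per Mb) in the window between them. On 18q, the sparsest window of 10 Mb was from 60000001 to 70000000 with 47 peaks (4.70 per Mb), and the fullest was from 40000001 to 50000000 with 93 (9.30 per Mb). The only run of more than 1 empty bin on chromosome 18 was from 52000001 to 54000000. On 18p the single empty bin was the second of the arm, from 1000001 to 2000000, directly after a first bin of 21 peaks.

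The most crowded bin of both chromosomes was near the end of 13q, from 113000001 to 114000000, with 47 peaks. These were mostly modest, with a median fold enrichment of 4.29 (95% order-statistic interval 3.55 to 4.79), and only 4 of them reached a −log10 q-value of 100. The next 2 bins of 13q, with 30 peaks each, were from 110000001 to 111000000 and from 112000001 to 113000000, so that the 3 fullest bins all lay in the last 5 Mb of the arm. On 18q the fullest bin, with 30 peaks, was internal, from 48000001 to 49000000, with a median fold enrichment of 5.48 (4.51 to 7.05). It was followed by the bins from 23000001 to 24000000 with 25 peaks and from 59000001 to 60000000 with 23. On 18p the fullest bin was from 12000001 to 13000000, with 23 peaks and a median fold enrichment of 8.28 (4.98 to 11.1).

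The last 5 Mb of 13q, measured back from the last peak, held 140 peaks, or 17.0% of the arm. Their density of 28 per Mb was 3.71 times that of the rest of the arm (7.55 per Mb, 95% exact interval of the ratio 3.07 to 4.45). They were also weaker, with a median fold enrichment of 5.16 (4.29 to 6.06) against 6.48 (6.01 to 6.96) in the rest, intervals that overlap slightly. A −log10 q-value below 5 was found for 34 of the 140 (24.3%, Wilson interval 17.9% to 32.0%), against 9.66% (7.67% to 12.1%) in the rest of 13q. The last 5 Mb of 18q held 58 peaks at 11.6 per Mb, 1.65 times the rest of the arm (1.23 to 2.18), and 6 of these were below 5 (10.3%, 4.83% to 20.8%), close to the 10.1% (7.41% to 13.5%) of the rest of 18q. The first 5 Mb of 18p, with 10.4 peaks per Mb against 10.1 in the rest, showed no such rise. The intervals of the ratios on 13q and 18q take peaks as independent, and with peaks spread so unevenly they are too narrow. A crowded end with peaks of lower fold enrichment was not limited to 13q. The last 5 Mb of chromosome 14 held 36.6 peaks per Mb against 11.0 in the rest, with a median fold enrichment of 5.47 (4.93 to 5.79) against 7.11 (6.62 to 7.59). The last 5 Mb of 19q held 80.4 peaks per Mb against 49.4 in the rest, with a median fold enrichment of 3.63 (3.26 to 4.20) against 5.96 (5.62 to 6.28). Of these peaks, 25.9% (21.8% to 30.4%) were below 5 in −log10 q-value, against 10.6% (9.02% to 12.4%) in the rest.

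Median fold enrichment was higher in the part of 13q near the centromere than in its later part. It was 8.67 (6.56 to 9.97) in the window from 20000001 to 30000000 and 8.68 (6.97 to 10.4) in the next. From 80000001 to 90000000 it was 4.71 (3.83 to 5.47), and from 110000001 to the last peak 4.95 (4.24 to 6.07). The intervals of the first pair of windows do not meet those of the second. The windows were picked after their values were seen. On 18q the window medians lay between 5.47 and 7.22 from 30000001 to 80000000, with overlapping intervals.

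Long stretches without any peak took up much of both chromosomes. Counted between neighbouring peaks of 1 arm, stretches of at least 500 kb numbered 34 on 13q, 4 on 18p and 26 on 18q. Together they made up 38.2 Mb, or 40.0%, of 13q and 30.8 Mb, or 41.6%, of chromosome 18. By arm, the share was 18.4% on 18p and 47.7% on 18q. On chromosome 14 it was 35.1%, from 24 stretches, and on chromosome 19 2.05%, from 2 stretches. Stretches of at least 1 Mb numbered 12 on 13q, 13 on chromosome 18, 12 on chromosome 14 and 0 on chromosome 19.

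The longest stretch, of 3.81 Mb, ran on 13q from 62847871 to 66657175. It began at a narrow, weak peak (62847617 to 62847870, fold enrichment 3.83, −log10 q-value 7.50) and ended at a stronger one (66657176 to 66657741, fold enrichment 13.7, −log10 q-value 77.8). The second longest, of 3.34 Mb, ran from 87673970 to 91017473. At its left stood one of the broadest peaks of the chromosome, 3100 bp wide with a fold enrichment of 10.0 and a −log10 q-value of 190.2. The third was of 2.11 Mb, from 55245539 to 57352076. The fourth and the seventh, of 2.06 Mb (69565725 to 71621190) and 1.83 Mb (67737420 to 69565329), were parted by a single peak.

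On 18q the longest stretch was of 2.88 Mb, from 51235363 to 54119671, with narrow weak peaks at both edges (fold enrichment 3.69 and 3.14). Those of 1.94 Mb, from 70599104 to 72541923, and 1.61 Mb, from 72542447 to 74147657, were again parted by 1 peak of 523 bp with a fold enrichment of 4.37 and a −log10 q-value of 10.2. On 18p the longest stretch was of 1.20 Mb, from 907814 to 2104806. The longest stretch of chromosome 14 was of 3.70 Mb, close to that of 13q. The longest of chromosome 19 was of 0.593 Mb.

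A peak with at least 500 kb free on either side was found 13 times, with 5 on 13q, 1 on 18p and 7 on 18q. Their median width of 525 bp (389 to 942) and median fold enrichment of 5.06 (3.55 to 7.65) have intervals that include the medians of all 1416 peaks, 599 bp and 6.16. The lowest local background of the list was found for 11 of the 13, beside 49.6% of the 1416 peaks and 34.4% of the whole list. The remaining pair of the 13 stood out, with backgrounds of 29.7 fragments on 13q and 10.7 on 18q. The peak on 13q from 87670870 to 87673969 had 307 fragments at its summit, and the one on 18q from 68714475 to 68715488 was 1014 bp wide with 167 fragments, a fold enrichment of 14.4 and a −log10 q-value of 131.3. The loneliest by the sum of both sides, on 13q from 87670870 and from 69565330, had 3.34 and 2.06 Mb free on their longer side.

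Neighbouring peaks were a median of 42.8 kb apart on chromosome 13 (38.4 to 47.2, centre to centre) and 45.7 kb on chromosome 18 (40.5 to 51.4). The mean spacings of 115.9 and 123.7 kb were far above these medians, with the long stretches included. The median was 27.6 kb on chromosome 14 (24.3 to 31.5) and 10.7 kb on chromosome 19 (10.2 to 11.0). The closest neighbours were 0.556 kb apart on chromosome 13 and 0.642 kb on chromosome 18. A neighbour within 10 kb made up 17.4% of the spacings on chromosome 13 (15% to 20.1%) and 17.8% on chromosome 18 (14.9% to 21.1%), against 24% on chromosome 14 and 47.0% on chromosome 19. Spacings of over 100 kb made up 25.7%, 28.6%, 17.2% and 1.66% in the same order.

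**Figure D3:**
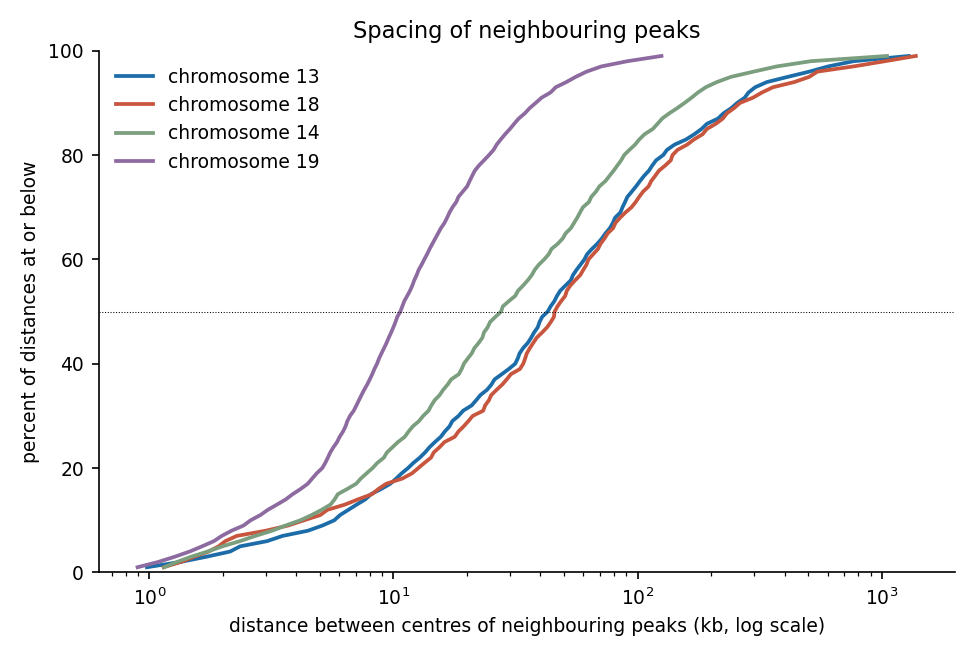
Percent of neighbouring peaks (vertical axis) whose centres lie within a given distance in kb (horizontal axis, log scale), for chromosomes 13, 18, 14 and 19, with the median at the dotted line. The curves of chromosomes 13 and 18 run close together and, above about 10 kb, to the right of chromosome 14 and further to the right of chromosome 19.

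Joining peaks whose centres were within 10 kb of the next left 570 peaks of chromosome 13 (69.3%) and 406 of chromosome 18 (68.5%) on their own, against 59.3% on chromosome 14 and 31.5% on chromosome 19. Runs of at least 4 peaks were rare, with 4 on 13q and 3 on chromosome 18, which held 2.19% of the peaks of each. On chromosome 14 such runs held 7.52% and on chromosome 19 32.9%. The longest runs had 5 peaks. The run on 13q from 71864316 to 71879451 had a fold enrichment of up to 9.92. The run on 13q from 112293417 to 112308112 was broad and low, with a median width of 1743 bp and a fold enrichment of at most 4.47. The run on 18q from 48940708 to 48960804 lay in the fullest bin of that arm and reached a fold enrichment of 5.38.

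Single peaks on chromosomes 13 and 18 were not smaller than elsewhere. Their median width was 599 bp (569 to 639), against 589 bp (585 to 595) on the other chromosomes of 1 to 22 and X. By chromosome it was 578 bp on 13 (540 to 608), 651 bp on 18 (596 to 697), 687 bp on 14 (639 to 729) and 622 bp on 19 (606 to 644). Peaks of chromosome 13 were thus narrower than those of chromosome 14, with intervals apart. Among the 23 chromosomes, chromosomes 13 and 18 ranked 17 and 2 from the top in median width. A width of at least 1000 bp was found for 362 of the 1416 peaks, or 25.6% (23.4% to 27.9%), beside 22.9% of the whole list. The mark of 100 in −log10 q-value was reached by 294, or 20.8% (18.7% to 23%), which is near the 21.5% of the whole list. A −log10 q-value below 5 was found for 156, or 11.0% (9.49% to 12.8%), against 13.5% (13.2% to 13.9%) on the other chromosomes. The median −log10 q-value was 24.3 on chromosome 13 (21.2 to 28) and 23.9 on chromosome 18 (20.1 to 29.2), against 23.2 (22.9 to 23.8) on the others. It was higher on chromosome 14, at 32.1 (27.9 to 35.2), and on chromosome 19, at 30.8 (28.5 to 33.6). The intervals of chromosomes 13 and 14, and of 18 and 19, overlap slightly.

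The median fold enrichment, the height of a peak at its summit over the local background, was 6.27 on chromosome 13 (5.88 to 6.63) and 6.07 on chromosome 18 (5.69 to 6.56). On the other chromosomes it was 5.60 (5.60 to 5.68), below both intervals. Chromosome 14, at 6.73 (6.27 to 7.11), was higher still, and chromosome 19, at 5.41 (5.25 to 5.62), was lower. Among the 23 chromosomes, chromosomes 13 and 18 ranked 3 and 6 from the top. Fold enrichment ranged from 1.67 to 19.4 on chromosome 13 and from 1.75 to 19.6 on chromosome 18.

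The numbers of fragments at the summit and in the local background, from which the fold is made, were recovered from the fold and the p-value for all 1416 peaks. Summits held a median of 52 fragments over the 4 libraries together on chromosomes 13 and 18 (49 to 56), against 56 on the others (55 to 57). The local background had a median of 6.42 fragments on chromosome 13 (6.32 to 6.83) and 6.54 on chromosome 18 (6.32 to 7.08). These were the 2 lowest of the 23 chromosomes, closely followed by chromosome 4 with 6.83 and chromosome 5 with 6.93. Both medians lie just above 6.32, the lowest background in the list, which 49.8% and 49.4% of their peaks share. Their rank therefore mostly restates these shares. The median background was 8.34 on chromosome 14 (7.59 to 9.08), 14.7 on chromosome 19 (14.1 to 15.3) and 8.63 on the others together (8.54 to 8.70). The summits of chromosomes 13 and 18 held no more fragments than elsewhere. At like summits a higher fold and a lower background are the same statement, because the fold is made from both. Chromosome 14 had a higher fold, at 6.73, with a higher background than chromosomes 13 and 18 and 64 fragments at the summit (59 to 70).

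The lowest background in the list was 6.32 fragments. MACS2 lets no local background fall below a level set by the genome as a whole, so that many peaks share this value. It applied to 703 of the 1416 peaks, or 49.6% (47.0% to 52.2%), beside 34.4% of the whole list. The shares were 49.8% on 13q, 49.0% on 18p and 49.5% on 18q, the highest of the 23 chromosomes by chromosome. Next came chromosome 4 with 46.6% and chromosome 5 with 44.9%. Chromosome 14 had 37.7% and chromosome 19 10.1%. A background at least 3 times the lowest was found for 12.3% of the 1416 peaks (10.7% to 14.1%), against 20.5% on the others (20.2% to 20.9%).

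**Figure D4:**
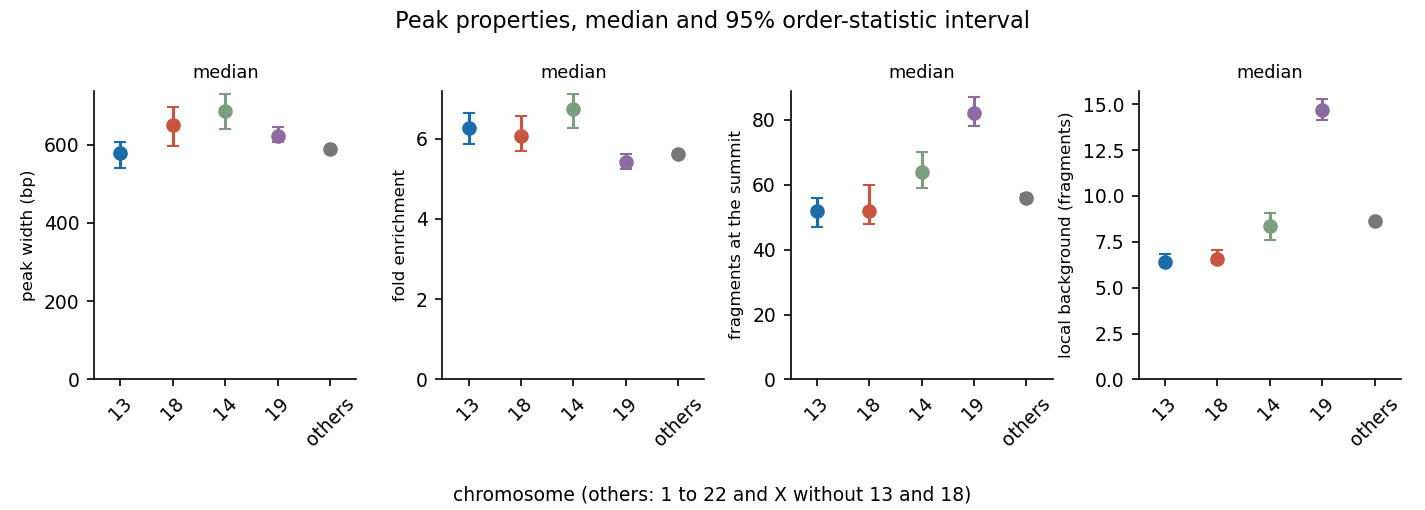
Median peak width in bp, fold enrichment, fragments at the summit and local background in fragments (vertical axes, from 0) for chromosomes 13, 18, 14, 19 and the others of 1 to 22 and X, with 95% order-statistic intervals. Of the groups drawn, chromosomes 13 and 18 have the lowest local background (6.42 and 6.54), and their summits are no higher than those of the others.

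Within chromosomes 13 and 18 together, the share of peaks with the lowest background fell with the number of peaks in the same bin. Of the 92 peaks in bins of 1 to 4 peaks, 67.4% (57.3% to 76.1%) had the lowest background, of the 665 in bins of 5 to 14 peaks 54.0% (50.2% to 57.7%), and of the 659 in bins of at least 15 peaks 42.8% (39.1% to 46.6%). On chromosome 18 alone the shares were 63.6% (46.6% to 77.8%), 52.3% (46.5% to 58.1%) and 44.8% (39.1% to 50.7%), with overlapping intervals. In crowded bins, neighbouring peaks can lie within the window from which the background is taken, and their part in this was not tested. The part of a peak's own fragments in its background was not tested either. The lone peaks from 87670870 on 13q and 68714475 on 18q had backgrounds of 29.7 and 10.7 fragments, under 307 and 167 fragments. In the same order of classes, chromosome 14 had lower shares, with 48.8% (34.3% to 63.5%), 44.9% (39.5% to 50.4%) and 33.9% (30.6% to 37.4%). Only the last interval lies apart from that of chromosomes 13 and 18. That class has no upper limit, so crowding within it was not matched. Median fold enrichment moved less, from 5.74 (4.71 to 6.60) in the emptiest bins to 6.42 (5.88 to 6.97) and 6.06 (5.57 to 6.46) in the fuller ones. Widths showed no order beyond their intervals either, at 532.5 bp (395 to 691), 635 bp (566 to 686) and 588 bp (549 to 628).

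**Figure D5:**
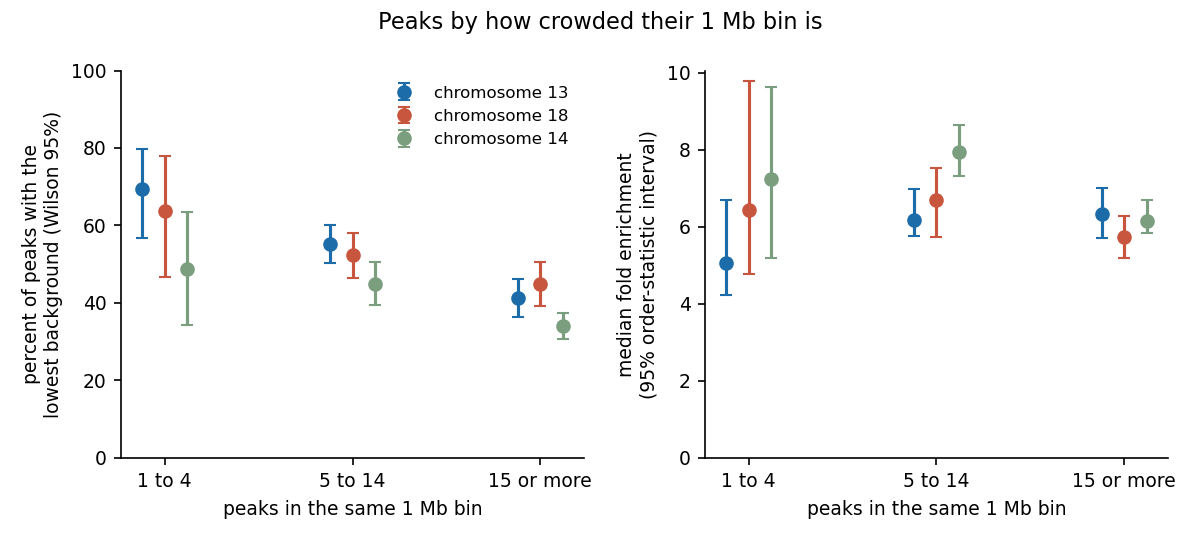
Left, percent of peaks with the lowest background (Wilson 95% intervals), and right, median fold enrichment (95% order-statistic intervals), both on the vertical axes, for peaks of chromosomes 13, 18 and 14 by the number of peaks in their 1 Mb bin (horizontal axes). The share with the lowest background falls with crowding on chromosomes 13 and 18 together (67.4% to 42.8%), but on chromosome 18 alone its intervals overlap. The intervals of the fold on chromosomes 13 and 18 overlap.

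Width and height rose together among these peaks. The 219 peaks under 300 bp had a median of 26 fragments at the summit (24 to 27) and a fold enrichment of 3.50 (3.28 to 3.69). The 362 peaks of at least 1000 bp had 165 fragments (151 to 180) and a fold enrichment of 10.1 (9.62 to 10.6). On the other chromosomes, peaks of at least 1000 bp had more fragments, 207 (202 to 211), at a like fold enrichment of 9.90 (9.81 to 10.0). Their median −log10 q-value was 127.1 (123.6 to 130.2), against 105.0 (93.0 to 119.5) on chromosomes 13 and 18. Broad peaks on chromosomes 13 and 18 were therefore lower in fragments than broad peaks elsewhere, and the narrow ones were alike, with 27 fragments (26 to 27) elsewhere.

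On chromosome 13 the top −log10 q-value was 483.7, for a peak from 49443729 to 49444870 whose summit held 625 fragments, a 14.9-fold enrichment. The next was from 51583775 to 51585088, with 652 fragments and a −log10 q-value of 465.9. The highest fold enrichment, 19.4, belonged to the last peak of the chromosome, from 114353760 to 114354336, which was only 577 bp wide and held 497 fragments. Among the 5 highest folds was also the peak from 91398463 to 91399188 (fold enrichment 18.1), which stood at the left edge of a stretch of 1.83 Mb without peaks. The widest peak, of 3765 bp from 109783501 to 109787265, had 498 fragments over a background of 96.4.

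On chromosome 18 the highest −log10 q-value, 2085, belonged to a peak near the start of the short arm, from 106755 to 110911, which was also the widest of the chromosome at 4157 bp. It held 3814 fragments at its summit over a local background of 447.3, both far above any other peak of chromosomes 13 and 18, so that its fold enrichment was a moderate 8.51. The next background in height was 96.4, and the next pileup on chromosome 18 was 857 fragments. That pileup belonged to the last peak of the chromosome, from 80262897 to 80263281, 385 bp wide, with the highest fold enrichment of both chromosomes, 19.6, and a −log10 q-value of 760.6. The strongest peak of 18p after its first bin was from 12947208 to 12948603, with 554 fragments and a fold enrichment of 13.8. The last peaks of both chromosomes thus had the highest fold of their chromosome. Whether they, or the peak near the start of 18p, lie in ENCODE blacklisted regions or beside repeats was not checked.

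The weakest peaks show the lower end of what the pooled depth could detect. On chromosome 13 the lowest −log10 q-values were 1.52 and 1.54, with 18 and 16 fragments at the summit, and on chromosome 18 1.97, with 17 fragments. An open site with fewer fragments than these over the 4 libraries was not detectable, so that an empty stretch is one without a peak at this depth.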

How the data were processed

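ATAC-seq was made from 4 HEK293 libraries, which the sample labels assign to the mouse, whereas the methods and labels give a human line. Per the labels and the methods, the authors used Trimmomatic on adapters, Bowtie2 for alignment (the submitters' processing notes give GRCh38.p10), Picard for duplicates and MACS2 for peaks, and dropped peaks in ENCODE blacklisted regions. Whether that last step was applied to the list was not checked. The deposited list, named as called on merged samples, gives a score, the fold enrichment (a linear ratio at the summit) and the −log10 of the p-value and q-value. Columns of single samples numbered 0, and the depth per library is not given in it.

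Counting used scipy 1.17.1, pandas 2.3.3 and numpy 2.4.6 under Python 3.11.15 (figures: matplotlib 3.10.9), in 1-based coordinates. Lengths run to the last peak. Summit fragments and background were solved from the fold (pseudocount 1) and a Poisson p-value, with a misfit of at most 0.001. On simulated data this returned 100% of 1000 pileups. The simulation did not reach the largest values reported, such as a background of 447.3 fragments or a fold enrichment of 19.6. For such peaks the misfit was the only check. A background within 1% of the lowest counted as lowest. Intervals are 95% Wilson (shares), order-statistic (medians) and exact Poisson (densities). Chromosomes and classes were chosen with earlier results of these data known. Of the supplied references none was of the list's build, so the planned genes, promoters and motif letters were not analysed here. The rule for named genes (lists by role, genes of empty stretches, crowded bins and leading peaks) was not applied, and the single peaks given are the leading ones by value.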

Additional observations from a re-analysis of the deposited data

Results flagged for a closer look

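The 12 peaks of the left-out stretches, 7 on chromosome 13 and 5 on chromosome 18, are given here because the report uses them only within the totals of the whole list. The 5 on chromosome 18 all lay between 21111176 and 21391403, near the upper limit of the stretch left out. The strongest were on chromosome 13 from 18211753 to 18213688, with a fold enrichment of 18.5 and a −log10 q-value of 195.2, and on chromosome 18 from 21111176 to 21112383, with 13.6 and 266.0. The median fold enrichment was 3.69 on chromosome 13 and 4.92 on chromosome 18.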

How the results depend on the processing

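With only peaks of a −log10 q-value of at least 5, 1260 peaks remained on chromosomes 13 and 18, the density fell from 8.35 to 7.43 per Mb, and the medians rose to 669.5 bp for width, 6.85 for fold enrichment, 30.2 for −log10 q-value and 50.8 kb for spacing. With only peaks narrower than 1000 bp, 1054 remained, with 6.21 per Mb, 467.5 bp, a fold enrichment of 5.13, a −log10 q-value of 15.4, a spacing of 56.7 kb and a longest empty stretch of 3.89 Mb. Both filters remove peaks by construction. Without the last 5 Mb of each chromosome, 1218 remained, with 7.63 per Mb and a spacing of 49.4 kb. Empty bins, 11.9% at 1 Mb, were 3.61% at 2 Mb and 23.1% at 0.5 Mb. All other values on both chromosomes together lay within their intervals, and the number of peaks within 1.5 times its value. For the chromosomes taken singly, 27 of 70 values moved and 0 reversed. The alternatives for gene starts were not run for want of an annotation of the build. No paired analysis was possible because every value comes from all 4 libraries together, and for the same reason no replicate was left out. The pooled depth limits the weak end of the list, at 16 fragments.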
